A study of Mus musculus with 6 samples.

Results

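The 10 genes described here make up the core of insulin and insulin-like growth factor (IGF) signaling: the ligands Igf1 and Igf2, the receptors Igf1r and Insr, the receptor substrates Irs1 and Irs2, and the secreted binding proteins Igfbp2, Igfbp3, Igfbp4 and Igfbp5. They were listed by name for their place in the pathway, with earlier results of these data known. They are 10 of the 25239 genes in the table of raw counts. RNA was sequenced in bulk from thyroid organoids. Their source is a selected clone of G4 RosaLuc TRE-Nkx2-1-Pax8 mouse embryonic stem cells that carries bTg-NES-BrafV637E-ERT2. In these cells doxycycline switches on the thyroid transcription factors Nkx2-1 and Pax8. A bovine thyroglobulin promoter drives BrafV637E, the mouse counterpart of the human BRAF V600E oncoprotein, as a fusion with a modified estrogen receptor that 4-hydroxytamoxifen (4OHT) activates. All 3 groups were follicle-enriched organoids collected at day 31 in medium with 8-Br-cAMP, and each holds 2 libraries made from pooled wells. The cAMP group received no 4OHT, and the 4OHT group received 1 µM 4OHT for 5 days by its label. The PD+LY group received 1 µM 4OHT together with 2 inhibitors for 3 days by its label. These were the MEK inhibitor PD0325901 (PD, 250 nM) and a PI3K inhibitor abbreviated LY (5 µM). The methods add the inhibitors after a first period of 4OHT, so the PD+LY and 4OHT groups may also differ in days of 4OHT. Cells other than thyroid cells remain in these organoids.

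As background, insulin, IGF1 and IGF2 bind the insulin receptor and the type 1 IGF receptor, which are tyrosine kinases and can form hybrids with each other. The activated receptors phosphorylate IRS1 and IRS2, which recruit PI3K and so turn on AKT and mTOR, and other adaptors pass the signal to RAS and the RAF, MEK and ERK kinases. The binding proteins hold IGFs outside the cell and can prolong, deliver or block their action. Thyroid follicular cells respond to IGF1 and insulin together with thyrotropin, whose second messenger is cAMP. The comparisons ask how the RNA of these genes differs when BrafV637E is activated and when MEK and PI3K, kinases downstream of the same receptors, are inhibited.

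The upstream sequences of 4 members are shown because both receptor substrates share a pair of motifs upstream of their RefSeq start sites. Igfbp4 and Igfbp5 were added because they had the largest changes past the test. They are RefSeq sequences of GRCm38.p6, 140 bases each, read 5′ to 3′ on the strand of the gene. The stretches of Irs1, Irs2 and Igfbp4 end at the last base before the RefSeq start site. That of Igfbp5 ends 21 bases before it, since GENCODE M21 places the start upstream of the RefSeq one. For the receptor substrates GENCODE M21 places the start downstream of the RefSeq one, by 23 bases in Irs1 and 471 bases in Irs2. By that annotation the Irs2 motifs lie farther from the start. For Irs1 and Irs2 capitals mark the insulin response element CAAAACA, here in its reverse form TGTTTTG, and the E-box CACGTG. For Igfbp4 they mark a TATA box, TATAAA. None of the motifs searched is in the Igfbp5 stretch.
Irs1, chr1:82291440-82291579, minus strand: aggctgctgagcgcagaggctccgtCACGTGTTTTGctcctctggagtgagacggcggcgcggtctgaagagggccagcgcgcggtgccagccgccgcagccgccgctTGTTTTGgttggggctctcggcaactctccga
Irs2, chr8:11008930-11009069, minus strand: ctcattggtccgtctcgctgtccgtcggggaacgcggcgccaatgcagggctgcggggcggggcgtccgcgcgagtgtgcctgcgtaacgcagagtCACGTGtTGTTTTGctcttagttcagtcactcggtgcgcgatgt
Igfbp4, chr11:99041104-99041243, plus strand: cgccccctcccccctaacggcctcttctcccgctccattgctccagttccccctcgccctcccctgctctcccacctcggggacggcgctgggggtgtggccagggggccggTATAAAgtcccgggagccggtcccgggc
Igfbp5, chr1:72874886-72875025, minus strand: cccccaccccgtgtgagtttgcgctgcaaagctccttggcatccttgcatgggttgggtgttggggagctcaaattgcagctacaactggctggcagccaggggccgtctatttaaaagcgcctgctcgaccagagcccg

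Of the 10 members, 9 had an entry in the RefSeq promoter table, with 13 windows of 250 bases before a start site among the 32851 windows searched on both strands. Insr had none. The insulin response element was found in the windows of Irs1 and Irs2 and in 5.56% of all windows. In Irs1 it begins 111 and 32 bases before the RefSeq start, the first copy sharing its first bases with an E-box at 115. In Irs2 it begins 37 bases before the RefSeq start, next to an E-box at 44. The E-box was found in 6.02% of all windows and also 142 bases before the start of Igfbp2. The TATA box of Igfbp4 begins 28 bases before its start, and 12.4% of all windows hold those letters. An AP-1 element, TGACTCA, lies in the downstream window of Igfbp2 and in 4.46% of all windows. No member window held the forkhead element GTAAACA (3.17% of all windows), the cAMP response element TGACGTCA (1.55%) or the ETS element CCGGAAG (6.91%). A match is a stretch of letters, and no binding was measured.

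The 6 libraries hold 14898409 to 20637959 counts, so that 1 count equals 0.0486 to 0.0667 CPM (counts per 1000000 counts of the library, adjusted by TMM factors of 0.99 to 1.01). The members take 0.171 to 0.189% of each library. Replicates differed by more than counting error, the chi-square divided by its degrees of freedom being 8.48 for cAMP, 4.63 for 4OHT and 18.4 for PD+LY. The labels do not say whether 2 libraries of a group came from separate differentiations, so the p values measure the spread between these libraries, which may be technical. In bulk RNA, fewer cells of a type and less RNA per cell cannot be told apart. Markers of thyroid and other cells also moved. The 13 thyroid markers summed to 1660 and 1110 CPM in cAMP, 576 and 770 in 4OHT, and 2010 and 1000 in PD+LY, with Tg as the largest entry and Slc26a4 at 0 to 5 counts in every library. Of the 12 tested, 3 fell with 4OHT and 7 were higher in PD+LY than in 4OHT. The 15 mesenchymal markers summed to 1400 and 1540 CPM in the cAMP libraries, 2500 and 2640 in the 4OHT libraries, and 5030 and 4270 with PD+LY, mostly from the collagens Col1a1, Col1a2 and Col3a1. With 4OHT 4 of them rose by edgeR, and in PD+LY 5 were higher and 5 lower than in 4OHT, Vim (log2 fold change -0.88) and Pdgfrb (-1.26) among the lower ones. The 10 endothelial markers summed to 217 to 258 CPM, of which Pecam1 made up 128 to 171 CPM. Of the 9 tested, 4 fell with 4OHT (Kdr -2.31, Tie1 -3.46, Cdh5 -1.47 and Cldn5 -1.98 on the log2 scale), 1 rose, and 6 were lower in PD+LY than in cAMP. The 10 visceral endoderm markers summed to 423 to 470 CPM, of which Ttr made up 260 to 382 CPM. Of the 9 tested, 4 were lower in PD+LY than in 4OHT, among them Amn (-1.94), Hnf4a (-1.29) and Rbp4 (-1.08), and 1 was higher. In PD+LY against cAMP 2 of 10 neural progenitor markers (summed to 341 to 438 CPM) were higher and 3 lower, 5 of 10 pluripotency markers (3920 to 4470 CPM) were higher and 3 lower, and 1 of 7 tested muscle markers (40.2 to 88.1 CPM) was higher and 3 lower. The 10 macrophage markers summed to 34.0 to 70.5 CPM, with the defining markers Ptprc and Adgre1 at 0 counts in all 6 libraries. The part of these cells in the member results was not tested.

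Compared per kilobase of merged exons, the binding proteins and Igf2 were the most abundant members. Igfbp2 led with a mean of 400.0 CPM per kb and a range of 349 to 434 over the libraries. Igf2 followed at 62.9 CPM per kb (52.8 to 71.7), with no overlap with Igfbp2. Igfbp5 at 49.3 (32.9 to 66.7) overlapped Igf2, and Igfbp4 at 34.3 CPM per kb (26.1 to 44.6) overlapped Igfbp5. Igfbp3 stood apart at 13.0 CPM per kb (9.87 to 16.3). The receptors and substrates were lower, with Irs2 at 7.17 (5.55 to 8.77), Igf1r at 5.27 (4.34 to 6.25) and Insr at 3.94 CPM per kb (3.35 to 4.79), each overlapping its neighbour in this order. Igf1 stood at 1.95 (1.48 to 3.26) and Irs1 at 0.606 CPM per kb (0.351 to 0.901), with no overlap with their neighbours. With the length of the longest transcript in place of merged exons, Irs2 at 7.17 and Igf1r at 7.75 CPM per kb changed places. The genes for insulin itself were at or near 0, Ins1 with no count in any library and Ins2 with 1 count in 1 PD+LY library.

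**Figure D1:**
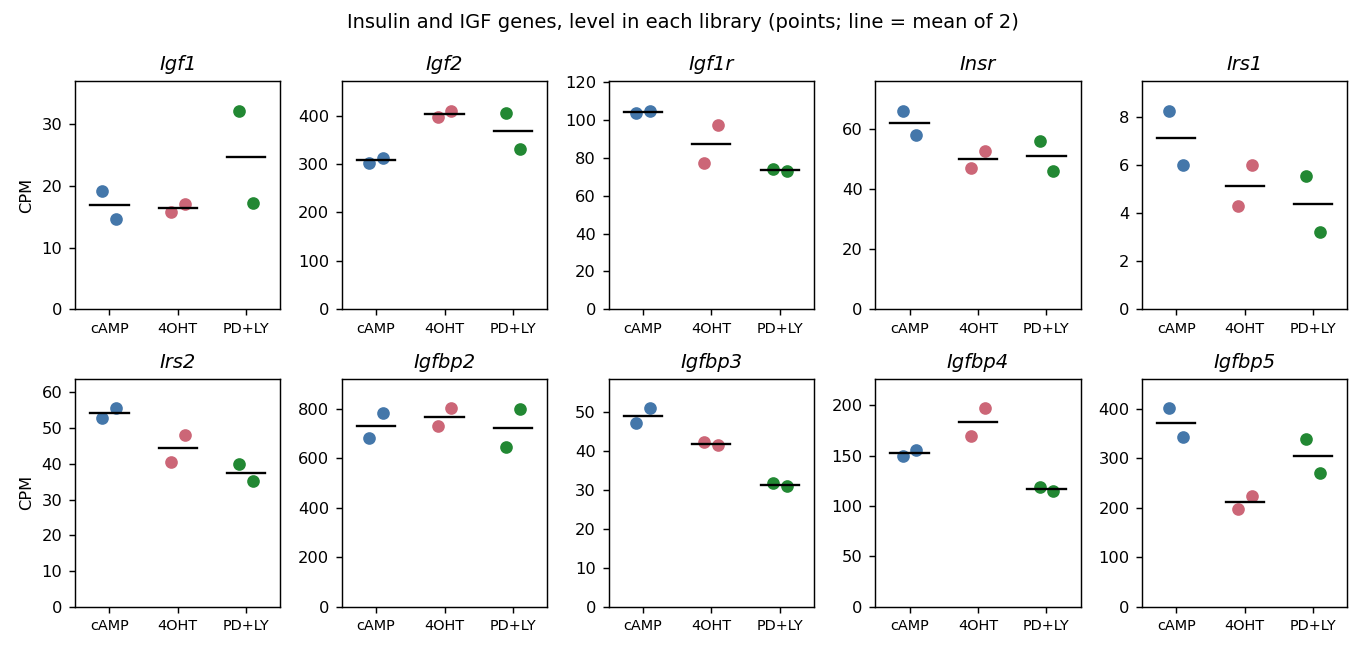
Level of each member in CPM (linear axis from 0) in the 3 groups, where points are single libraries and lines are means of 2. The libraries of 4OHT lie below those of cAMP and PD+LY for Igfbp5, those of PD+LY lie below all others for Igfbp3 and Igfbp4, and the PD+LY libraries of Igf1 stand apart from each other at 32.2 and 17.2 CPM.

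Most members changed little, and the clearest changes were in the binding proteins. Igfbp5 fell with 4OHT and rose from there with PD+LY, Igfbp3 and Igfbp4 fell with PD+LY, Igf2 rose with 4OHT, and Igf1r and Irs2 were lower in PD+LY than in cAMP. Some of these calls were lost when 1 library was left out, and that of Igf2 was lost whichever library compared was left out. No change reached 2-fold. A gene is said to have risen or fallen where its Benjamini-Hochberg adjusted p from edgeR's quasi-likelihood test over 15256 genes was under 0.05, and a differentially expressed gene (DEG) also changed at least 2-fold. In 4OHT against cAMP 2 of the 10 members passed, 1 higher and 1 lower, where 8.39% of all tested genes passed, 4.04% higher and 4.35% lower. In PD+LY against 4OHT 3 passed, 1 higher and 2 lower, where 22.7% of all tested genes passed, 10.7% higher and 12.1% lower. In PD+LY against cAMP 4 passed, all lower, where 25.7% of all tested genes passed, 12.1% higher and 13.7% lower. Without the filter on low counts 8 members passed in that last comparison, 2 higher (Igf1 and Igf2) and 6 lower. The added calls were Igf1, Igf2, Irs1 and Igfbp5, in a setting where 4563 of 19653 genes passed. None of the members was a DEG by edgeR or DESeq2, no estimate reaching 2-fold at any p, against 2.67%, 7.26% and 9.24% of all tested genes in these comparisons. The median log2 fold change of the members was -0.24, -0.19 and -0.34, and that of all tested genes was 0, 0.01 and 0. The libraries of the 2 groups did not overlap for 8, 6 and 8 members, where this held for 58.5%, 62.3% and 61.4% of all tested genes. Counts of this size among 10 genes are read as no result about the group as a whole. The comparisons share libraries pair by pair, so their values are not independent of each other.

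**Figure D2:**
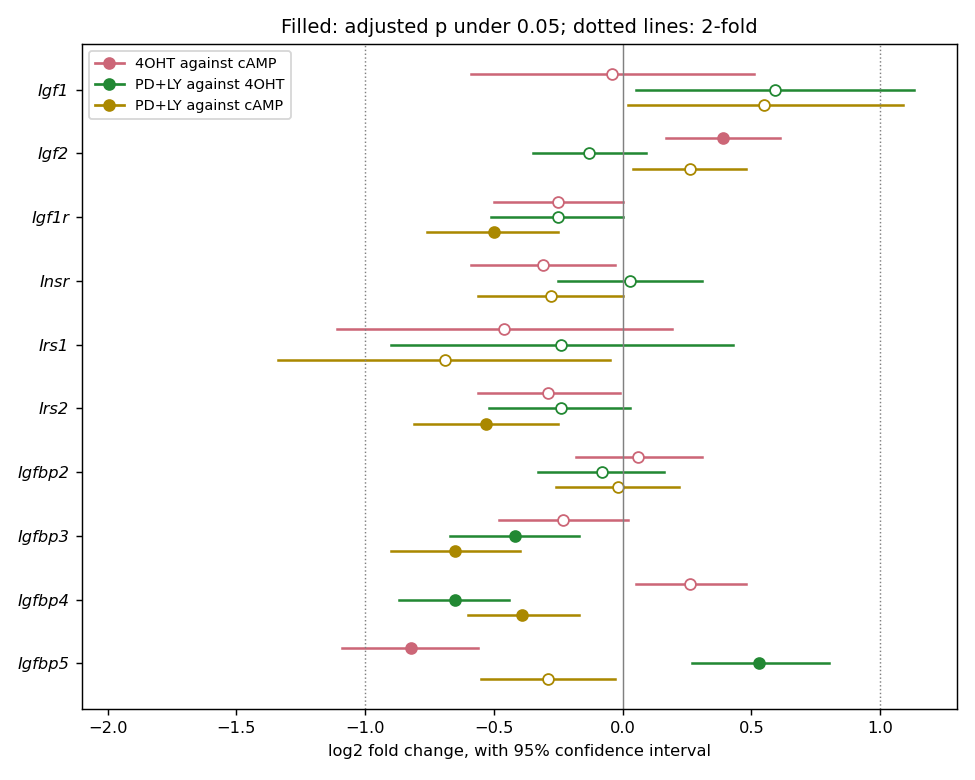
Log2 fold change of each member with its 95% confidence interval in the 3 comparisons, from edgeR's fit over 6 libraries. Filled points passed an adjusted p of 0.05, which holds for 2, 3 and 4 members, and dotted lines mark a 2-fold change, which no estimate reached.

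Igf2, the fetal growth factor that binds IGF1R and the insulin receptor, is an imprinted gene at chr7:142650766-142666816 of GRCm38, minus strand, with 8 merged exons in GENCODE M21. It measured 302 and 313 CPM in the cAMP libraries, 398 and 410 in the 4OHT libraries, and 405 and 332 in the PD+LY libraries. Both libraries of each 4OHT-treated group lay above both cAMP libraries, and the PD+LY libraries overlapped the 4OHT ones. Igf2 rose 1.31-fold in 4OHT against cAMP (log2 fold change 0.39, SE 0.10, edgeR quasi-likelihood adjusted p = 0.0335, n = 2 libraries per group). This call was lost without any 1 of the 4 libraries compared, with log2 fold changes of 0.37 to 0.42 and adjusted p values of 0.102 to 0.226, each fit then assuming that the lone library varied like the others. In PD+LY against cAMP the log2 fold change was 0.26 (95% interval 0.04 to 0.48, edgeR adjusted p = 0.0786), and in PD+LY against 4OHT it was -0.13 (-0.35 to 0.09, adjusted p = 0.361). Both depended on which PD+LY library was kept. Without PD+LY library 1 Igf2 passed as lower than in 4OHT (-0.28, edgeR adjusted p = 0.032), and without PD+LY library 2 it passed as higher than in cAMP (0.40, adjusted p = 0.00471). Of the annotated exon bases of Igf2, 62.8% are shared with Gm49394 on the same strand and 1.71% with the antisense gene Igf2os, which had 17 to 39 counts. Gm49394 is not among the counted genes, and since reads were counted without strand, reads of Igf2 and Igf2os in their shared bases cannot be told apart.

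Igf1, the growth factor that mediates much of the action of growth hormone, is at chr10:87858265-87937042, plus strand, and was the lower of the ligands. It measured 19.1 and 14.6 CPM in cAMP, 15.7 and 17.0 in 4OHT, and 32.2 and 17.2 in PD+LY. The high value belongs to PD+LY library 1 alone, and the other 5 libraries lay between 14.6 and 19.1 CPM. The log2 fold change was -0.04 in 4OHT against cAMP (95% interval -0.59 to 0.51, edgeR adjusted p = 0.949), 0.59 in PD+LY against 4OHT (0.05 to 1.13, adjusted p = 0.105) and 0.55 in PD+LY against cAMP (0.02 to 1.09, adjusted p = 0.12). Without PD+LY library 1 the differences of PD+LY from 4OHT and cAMP were 0.07 and 0.03, and without PD+LY library 2 they were 0.98 and 0.94 and passed, with edgeR adjusted p values of 0.00191 and 0.00202. Both also passed without the filter on low counts, at 0.60 and 0.56 (edgeR adjusted p = 0.00281 and 0.00481). With a replicate block they passed at 0.53 and 0.52 (edgeR adjusted p = 0.0326 and 0.0318). Both of these settings keep PD+LY library 1. PD+LY library 1 also had the higher sums of thyroid markers (2010 against 1000 CPM) and mesenchymal markers (5030 against 4270 CPM) of its group, and the part of those cells in the Igf1 value was not tested.

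Igf1r, the receptor with high affinity for both IGFs, spans 280.8 kb at chr7:67952827-68233668, plus strand. It measured 104 and 105 CPM in cAMP, 77.6 and 97.5 in 4OHT, and 74.1 and 72.9 in PD+LY. The cAMP libraries were the highest and the PD+LY libraries the lowest, with no overlap between any of the groups. Igf1r was 1.42-fold lower in PD+LY than in cAMP (log2 fold change -0.50, SE 0.12, edgeR adjusted p = 0.00736), a call that held without each of the 4 libraries in turn, at -0.52 to -0.49. Neither of the other comparisons passed, with -0.25 in 4OHT against cAMP (95% interval -0.50 to 0.00, edgeR adjusted p = 0.208) and -0.25 in PD+LY against 4OHT (-0.51 to 0.00, adjusted p = 0.133).

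Insr, the insulin receptor, is at chr8:3122061-3279617, minus strand. It measured 65.9 and 57.7 CPM in cAMP, 47.0 and 52.6 in 4OHT, and 55.7 and 46.0 in PD+LY. The cAMP libraries were the highest, and the 4OHT and PD+LY libraries overlapped. No comparison passed. The log2 fold change was -0.31 in 4OHT against cAMP (95% interval -0.59 to -0.03, edgeR adjusted p = 0.173), 0.03 in PD+LY against 4OHT (-0.25 to 0.31, adjusted p = 0.896) and -0.28 in PD+LY against cAMP (-0.56 to 0.00, adjusted p = 0.135). Without PD+LY library 1 the last of these was -0.42 and passed (edgeR adjusted p = 0.0285). Counts of Igf1r relative to Insr within a library, a ratio that needs no scaling of library size, were 1.57 and 1.82 in cAMP, 1.65 and 1.85 in 4OHT, and 1.33 and 1.58 in PD+LY.

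Irs2, a docking protein of both receptors, is at chr8:10984681-11008458, minus strand, in 2 exons. It measured 52.8 and 55.5 CPM in cAMP, 40.5 and 48.2 in 4OHT, and 39.9 and 35.1 in PD+LY. The order of the groups was that of Igf1r, cAMP above 4OHT above PD+LY, with no overlap. Irs2 was 1.44-fold lower in PD+LY than in cAMP (log2 fold change -0.53, SE 0.13, edgeR adjusted p = 0.00957), and without cAMP library 2 it missed the threshold at -0.48 (adjusted p = 0.0704). The log2 fold change was -0.29 in 4OHT against cAMP (95% interval -0.56 to -0.01, edgeR adjusted p = 0.194) and -0.24 in PD+LY against 4OHT (-0.52 to 0.03, adjusted p = 0.188).

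Irs1, its paralog, is at chr1:82233101-82291416, minus strand, and was the least abundant member, with 64 to 131 counts per library. It measured 8.24 and 5.99 CPM in cAMP, 4.27 and 5.98 in 4OHT, and 5.55 and 3.21 in PD+LY. Both cAMP libraries were above all others, by a narrow margin, and the 4OHT and PD+LY libraries overlapped. The log2 fold change was -0.46 in 4OHT against cAMP (95% interval -1.11 to 0.19, edgeR adjusted p = 0.382), -0.24 in PD+LY against 4OHT (-0.90 to 0.43, adjusted p = 0.612) and -0.69 in PD+LY against cAMP (-1.34 to -0.05, adjusted p = 0.108), the widest intervals among the members. Without PD+LY library 1 the last value was -1.14 and passed (edgeR adjusted p = 0.0196). Of its exon bases, 30.9% overlap Gm9747 on the opposite strand, which is not among the counted genes. Irs2 had 6.4 to 10.9 times as many counts as Irs1 in the 6 libraries, and the groups overlapped in this ratio in every comparison.

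Igfbp5, a binding protein retained in extracellular matrix, is at chr1:72857932-72874884, minus strand. It measured 401 and 344 CPM in cAMP, 198 and 224 in 4OHT, and 339 and 271 in PD+LY. The 4OHT libraries were the lowest, the PD+LY libraries lay between them and the cAMP ones, and no groups overlapped. The sum of thyroid markers, with Tg as its largest entry, was lowest in the same libraries. With 4OHT 3 of 12 tested thyroid markers had fallen, where 4.35% of all tested genes fell and 4.04% rose. The sum of mesenchymal markers was higher in both 4OHT libraries than in both cAMP libraries, and higher again in PD+LY. Of the 15 mesenchymal markers 4 had risen with 4OHT and 0 had fallen. Of 9 tested endothelial markers 4 had fallen with 4OHT and 1, Pecam1, had risen. In PD+LY against 4OHT 0 endothelial markers rose and 2 fell, Esam and Plvap, which were not among those 4. The 4 gave log2 fold changes of 0.66 (Kdr), 0.49 (Cdh5), 0.85 (Tie1) and -0.35 (Cldn5) there, none past the test. The part of these cells in the Igfbp5 values was not tested. Igfbp5 fell 1.77-fold in 4OHT against cAMP (log2 fold change -0.82, SE 0.12, 95% interval -1.09 to -0.56, edgeR adjusted p = 0.00213), the largest fold change of any member that passed. It rose 1.45-fold in PD+LY against 4OHT (0.53, SE 0.12, 0.27 to 0.80, edgeR adjusted p = 0.00867). Against cAMP the PD+LY value was -0.29 (95% interval -0.55 to -0.03, edgeR adjusted p = 0.0987). Without 4OHT library 1 both calls missed the threshold, at -0.73 (edgeR adjusted p = 0.057) and 0.45 (adjusted p = 0.102), and without PD+LY library 1 the difference from cAMP passed at -0.46 (adjusted p = 0.00878).

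Igfbp4, a binding protein that is cleaved by pappalysins, is at chr11:99041244-99054392, plus strand. It measured 150 and 156 CPM in cAMP, 170 and 197 in 4OHT, and 119 and 115 in PD+LY. The 4OHT libraries were the highest and the PD+LY libraries the lowest, with no overlap. Igfbp4 fell 1.57-fold in PD+LY against 4OHT (log2 fold change -0.65, SE 0.10, edgeR adjusted p = 0.000778), a call that held without each of the 4 libraries, at -0.75 to -0.54. It was 1.31-fold lower in PD+LY than in cAMP (-0.39, SE 0.10, edgeR adjusted p = 0.0126), though without cAMP library 2 the value was -0.35 and missed the threshold (adjusted p = 0.0951). In 4OHT against cAMP the log2 fold change was 0.26 (95% interval 0.05 to 0.48, edgeR adjusted p = 0.122).

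Igfbp3, the main IGF carrier of blood plasma, is at chr11:7206086-7213923, minus strand. It measured 47.2 and 50.9 CPM in cAMP, 42.3 and 41.5 in 4OHT, and 31.8 and 30.9 in PD+LY. The libraries of a group lay close together, and the groups were ordered cAMP, 4OHT, PD+LY with no overlap. Igfbp3 fell 1.34-fold in PD+LY against 4OHT (log2 fold change -0.42, SE 0.12, edgeR adjusted p = 0.0223) and was 1.56-fold lower in PD+LY than in cAMP (-0.65, SE 0.11, adjusted p = 0.00167). The first call was lost without either 4OHT library, at -0.40 and -0.43 (both with an edgeR adjusted p of 0.142), and the second held without each of the 4 libraries, at -0.70 to -0.58. In 4OHT against cAMP the log2 fold change was -0.23 (95% interval -0.48 to 0.02, edgeR adjusted p = 0.251).

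Igfbp2, a binding protein of fetal tissues and the most abundant member, is at chr1:72824503-72852474, plus strand. It measured 682 and 781 CPM in cAMP, 729 and 801 in 4OHT, and 645 and 797 in PD+LY. The groups overlapped in all 3 comparisons. The log2 fold change was 0.06 in 4OHT against cAMP (95% interval -0.18 to 0.31, edgeR adjusted p = 0.775), -0.08 in PD+LY against 4OHT (-0.33 to 0.16, adjusted p = 0.617) and -0.02 in PD+LY against cAMP (-0.26 to 0.22, adjusted p = 0.911). Igfbp2 and Igfbp5 are neighbours on chromosome 1, transcribed toward each other with 5.5 kb between their ends. Counts of Igfbp2 relative to Igfbp5 were 1.70 and 2.27 in cAMP, 3.68 and 3.58 in 4OHT, and 1.90 and 2.94 in PD+LY. The 4OHT libraries were above both other groups in this ratio, by 0.89 over cAMP on the log2 scale, but 2 libraries against 2 cannot go below p = 0.3333 in the exact two-sided permutation test.

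**Figure D3:**
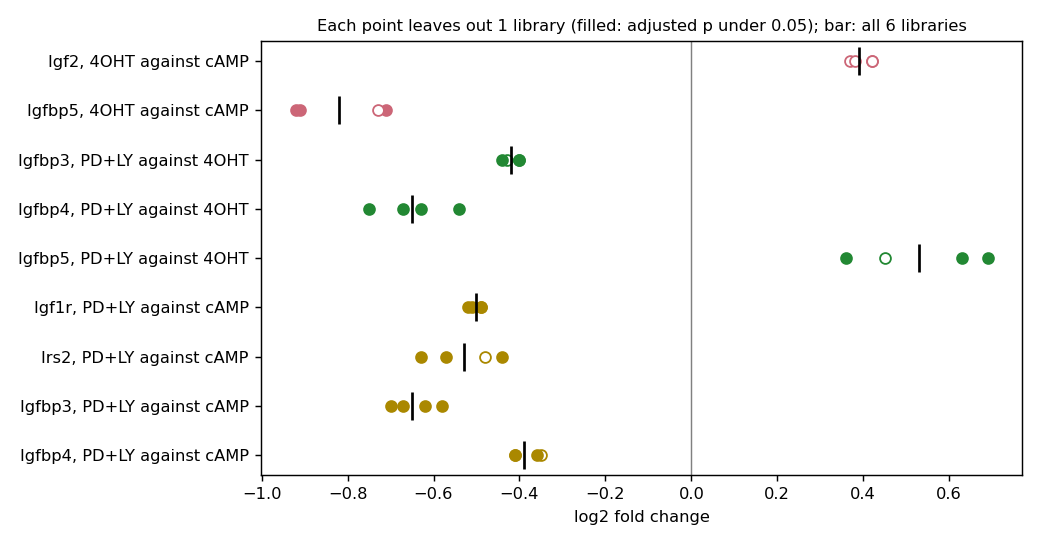
Log2 fold change of the 9 member changes that passed, with bars for all 6 libraries and points for fits that leave out 1 library of the groups compared. Filled points passed an adjusted p of 0.05. Every point kept its sign, while Igf2 passed in 0 of 4 fits and Igfbp4 (PD+LY against 4OHT), Igf1r and Igfbp3 (PD+LY against cAMP) in 4 of 4.

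Igf2 and H19 are neighbouring imprinted genes that share enhancers and are expressed from opposite parental copies, Igf2 from the paternal one and the non-coding RNA H19 from the maternal one. The 3′ end of Igf2 lies 72.6 kb from the start of H19. H19 measured 1090 and 1260 CPM in cAMP, 971 and 1070 in 4OHT, and 582 and 576 in PD+LY. H19 fell in PD+LY against 4OHT (log2 fold change -0.82, edgeR adjusted p = 0.000129) and was lower in PD+LY than in cAMP (-1.02, adjusted p = 1.69e-05). Counts of Igf2 relative to H19 were 0.277 and 0.248 in cAMP, 0.410 and 0.382 in 4OHT, and 0.695 and 0.576 in PD+LY. The ratio was thus higher in both 4OHT libraries than in both cAMP libraries and higher again in both PD+LY libraries, with a log2 difference of 0.60 between 4OHT and cAMP, 0.68 between PD+LY and 4OHT, and 1.27 between PD+LY and cAMP (exact permutation p = 0.3333 each, the smallest that 2 against 2 can give). Igf2r, the receptor that clears IGF2, gave log2 fold changes of 0.37, -0.02 and 0.35 in the same order, none past the test, and the counts of Igf2 relative to Igf2r were 0.894 to 1.34 over the 6 libraries. Counts of Igf2 relative to Igf1 were 15.8 and 21.4 in cAMP, 25.3 and 24.1 in 4OHT, and 12.6 and 19.3 in PD+LY.

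**Figure D4:**
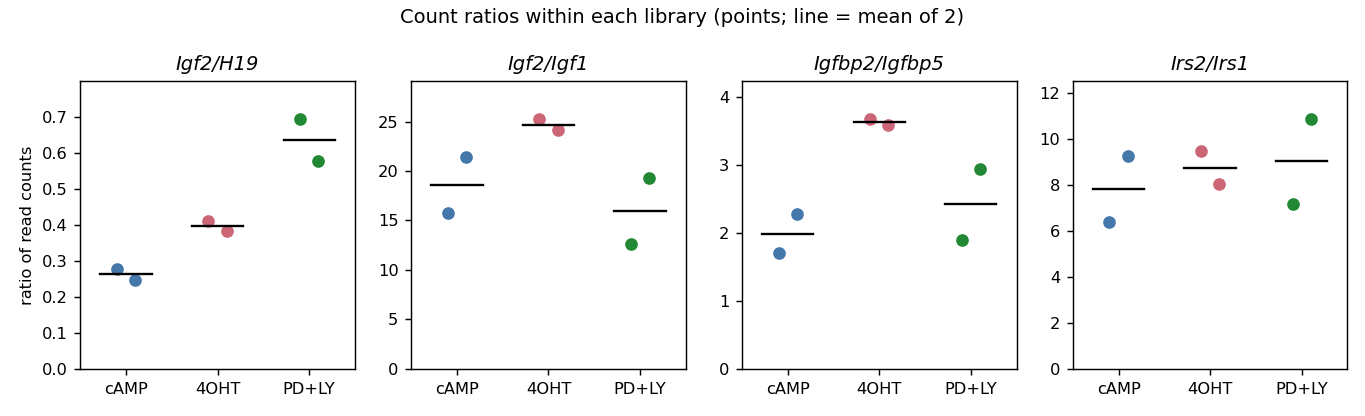
Ratio of read counts between pairs of genes in each library (points, with the mean of 2 as a line, linear axes from 0). Igf2/H19 lay at 0.248 to 0.277 in cAMP, 0.382 to 0.410 in 4OHT and 0.576 to 0.695 in PD+LY, Igfbp2/Igfbp5 was highest in 4OHT, and Irs2/Irs1 overlapped between the groups.

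Beyond the 10 members, 90 genes of the pathway were listed by role, of which 85 were tested. Of these, 5 rose and 11 fell with 4OHT, where 4.04% of all tested genes rose and 4.35% fell. In PD+LY 11 were higher and 15 lower than in 4OHT, where 10.7% and 12.1% of all tested genes were. Against cAMP 4 were higher and 24 lower in PD+LY, where 12.1% and 13.7% of all tested genes were. They include 1 DEG in each direction with 4OHT, 9 lower DEGs for PD+LY relative to 4OHT and 10 relative to cAMP. Of all tested genes 2.67%, 7.26% and 9.24% were DEGs in either direction. The same shares apply to each list below. The median log2 fold changes of the 85 genes were -0.07, -0.01 and -0.11. Socs3, an inhibitor of cytokine and insulin receptor signaling, rose with 4OHT (log2 fold change 1.04, edgeR adjusted p = 0.000116) and fell with PD+LY (-1.56, adjusted p = 2.55e-06), from 77.8 and 77.8 CPM in cAMP to 153 and 167 in 4OHT and 52.4 and 56.2 in PD+LY.

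In the list of PI3K and AKT genes, 2 of 18 rose and 2 fell with 4OHT, and 3 were higher and 4 lower in PD+LY than in 4OHT. Trib2 and Trib3 encode pseudokinases, of which TRIB3 binds AKT. Trib3 fell in PD+LY against 4OHT from 37.4 and 39.1 to 11.0 and 11.4 CPM (log2 fold change -1.77, edgeR adjusted p = 1.77e-05). Trib2 was lowest in PD+LY, at 4.43 and 2.82 CPM against 18.3 and 22.1 in cAMP (-2.48, edgeR adjusted p = 1.91e-05). Pik3cd, a catalytic subunit of PI3K singled out after its values were seen, fell in PD+LY against 4OHT from 41.2 and 39.4 to 18.4 and 23.2 CPM (-0.95, adjusted p = 0.000602).

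In the mTOR branch, 3 of 17 genes fell with 4OHT and 0 rose by edgeR or DESeq2 (1 at an unadjusted edgeR p under 0.05), and 1 was higher and 1 lower in PD+LY than in 4OHT. Ddit4, an inhibitor of mTORC1 that is induced by stress, fell from 145 and 170 CPM in 4OHT to 41.7 and 42.8 in PD+LY (log2 fold change -1.90, edgeR adjusted p = 9.75e-07) and had stood at 240 and 248 CPM in cAMP. Among the 9 genes of the glycogen and phosphatase branch, 1 rose and 1 fell in each comparison with 4OHT, and 1 was higher and 2 lower in PD+LY than in cAMP.

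None of the 14 receptor adaptors passed in 4OHT against cAMP by edgeR, where 1 was higher and 2 lower at an unadjusted p under 0.05 and DESeq2 called 1 lower. In PD+LY 3 were higher and 1 lower than in 4OHT. Sh2b2, an adaptor of the insulin receptor, fell from 4.00 and 4.11 CPM in 4OHT to 1.68 and 1.95 in PD+LY (log2 fold change -1.16, edgeR adjusted p = 0.0135), a call lost without either 4OHT library (adjusted p up to 0.092). Irs4, a further receptor substrate, was lower in PD+LY (1.88 and 0.584 CPM) than in cAMP (2.58 and 6.53 CPM) by -1.91 (edgeR adjusted p = 0.0189), and the call was lost without cAMP library 2 (-1.06, edgeR adjusted p = 0.262) or PD+LY library 2 (-1.29, adjusted p = 0.085). Grb2, which links receptors to RAS and was also singled out after its values were seen, was highest in PD+LY at 179 and 189 CPM against 122 and 126 in 4OHT (0.57, edgeR adjusted p = 0.0011).

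Among the other binding proteins and their regulators, 1 of 8 tested genes rose with 4OHT and 2 fell in PD+LY against 4OHT. Stc1, a stanniocalcin, whose family inhibits the proteases that cleave IGFBP4, fell from 26.2 and 26.3 CPM in 4OHT to 5.35 and 4.91 in PD+LY (log2 fold change -2.36, edgeR adjusted p = 7.21e-06). Igfbp7, an IGFBP-related protein singled out after its values were seen, rose with 4OHT from 50.6 and 55.9 to 85.6 and 77.9 CPM (0.62, edgeR adjusted p = 0.0192) and fell with PD+LY to 52.3 and 39.0 CPM (-0.84, adjusted p = 0.00143). The rise was lost without cAMP library 1 or without either 4OHT library (edgeR adjusted p up to 0.193). Igfbp1 had no count in any library. Of the 3 Igf2 mRNA-binding proteins 0 passed with 4OHT by edgeR or DESeq2 (2 lower at an unadjusted edgeR p under 0.05), and Igf2bp3, named after its values were seen, was higher in PD+LY (138 and 129 CPM) than in 4OHT (102 and 99.1 CPM, edgeR adjusted p = 0.0113) and cAMP (112 and 99.7 CPM, adjusted p = 0.0253).

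Of 15 tested imprinted growth genes, the family to which Igf2 belongs, 1 rose and 5 fell with 4OHT. Of all tested genes 4.04% rose and 4.35% fell there. In PD+LY 2 were higher and 6 lower than in 4OHT by edgeR, where 12.1% of all tested genes were lower, and DESeq2 called 4 lower. In PD+LY 9 were lower than in cAMP, where 13.7% of all tested genes were, and 0 higher, also at an unadjusted edgeR p under 0.05. DESeq2 called 8 lower and 0 higher. The median log2 fold changes were -0.35, -0.25 and -0.68. Mest, a paternally expressed gene, fell with 4OHT from 121 and 137 to 40.1 and 41.1 CPM (log2 fold change -1.67, edgeR adjusted p = 2.17e-05) and stood at 31.3 and 31.5 CPM in PD+LY. Dlk1, a paternally expressed inhibitor of differentiation, measured 24.5 and 32.5 CPM in cAMP, 40.2 and 56.7 in 4OHT and 13.1 and 13.3 in PD+LY, and fell in PD+LY against 4OHT (-1.88, edgeR adjusted p = 5.33e-05). The non-coding Kcnq1ot1 was lower in PD+LY (5.96 and 3.06 CPM) than in cAMP (17.7 and 13.6 CPM) by -1.79 (edgeR adjusted p = 0.000689). It is antisense to Kcnq1, from whose reads it cannot be told apart without strand. Meg3, the maternally expressed neighbour of Dlk1, was also lower in PD+LY than in cAMP (-1.12, edgeR adjusted p = 0.00857), a call lost without cAMP library 2 (-0.72, adjusted p = 0.0601) and with DESeq2 (adjusted p = 0.0715). Snrpn was not tested, with 0 to 2 counts.

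**Figure D5:**
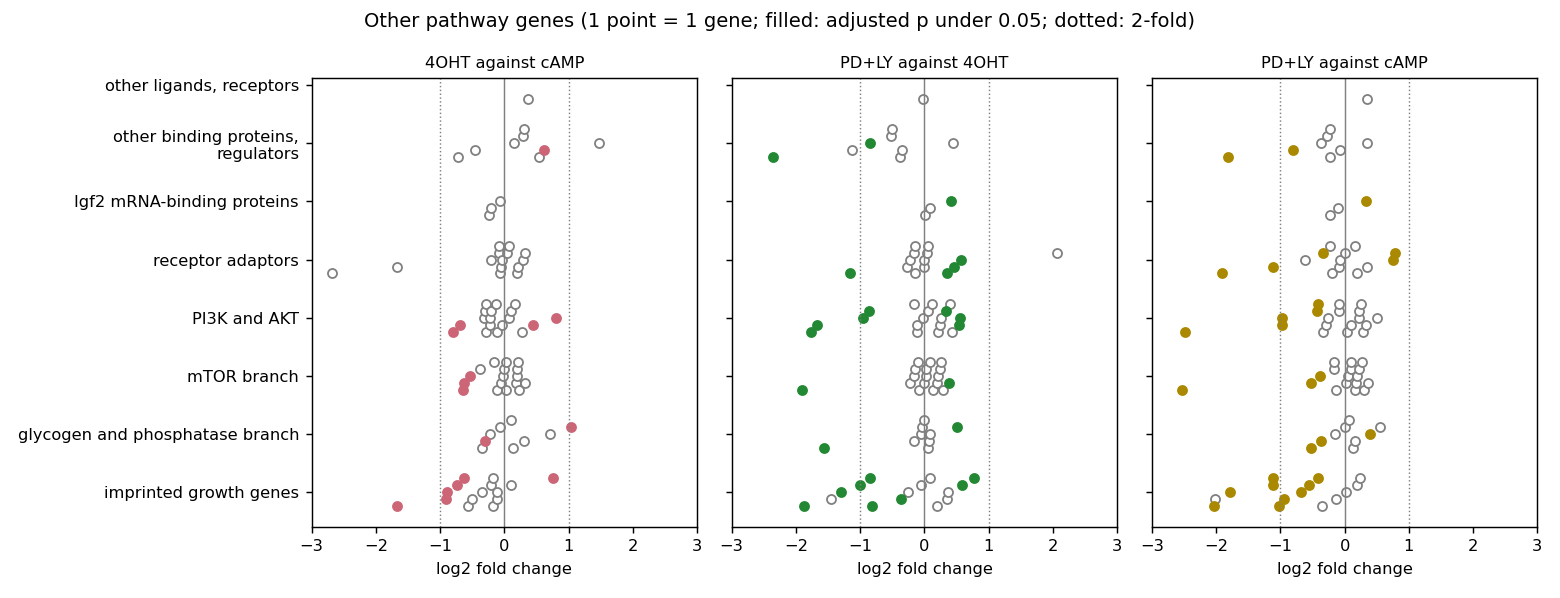
Log2 fold change of the other pathway genes by list in the 3 comparisons, where 1 point is 1 gene, filled points passed an adjusted p of 0.05 and dotted lines mark a 2-fold change. The 85 tested genes include 16, 26 and 28 that passed, where 8.39%, 22.7% and 25.7% of all tested genes passed. The imprinted growth genes, 15 of the 85, hold 9 of the 24 that were lower in PD+LY than in cAMP by edgeR. Of all tested genes 13.7% were lower there, and DESeq2 called 8 imprinted growth genes lower.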

How the data were processed

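Bulk RNA-seq was analysed from 6 libraries, 2 per group. According to the methods and the labels, the authors pooled wells, prepared stranded mRNA libraries, trimmed reads with Trimmomatic, aligned them to mm10 with HISAT2 and counted them per gene symbol with HTSeq without strand. The deposited values are these raw counts. A filterByExpr filter (minimum count 10 and total 15) left 15256 of 25239 genes. Counts were scaled with TMM, and 1 quasi-likelihood model of the 3 groups was fitted in edgeR 4.0.16 (R 4.3.3) to all libraries, with Benjamini-Hochberg adjustment over all tested genes and thresholds of 0.05 and 2-fold. The procedure was tested on simulated data. CPM are counts over TMM-scaled library size, and CPM per kb uses merged exons of GENCODE M21. Intervals are at 95%. Alternatives were DESeq2 1.42.0, scaling by RLE, leaving the filter out or asking for 10 counts in all libraries, fits of 2 groups, a replicate block and leaving out each library. All 10 members are named, with other pathway genes named where they were DEGs, up to the 4 largest changes per list and comparison. The members and lists were chosen with earlier results of these data known. No sample or column was left out. Among the listed pathway genes, 1 is counted in its list and not reported here by name.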

Additional observations from a re-analysis of the deposited data

How the results depend on the processing

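The number of members that passed stayed at 2, 3 and 4 (4OHT against cAMP, PD+LY against 4OHT, PD+LY against cAMP) with DESeq2, RLE size factors, at least 10 counts in every library and fits of only the 2 groups compared. Without a filter the numbers were 2, 4 and 8, and with the replicate block they were also 2, 4 and 8, with Igf1 added in PD+LY against 4OHT (block 0.53, edgeR adjusted p = 0.0326) and 2 members higher and 6 lower in the last comparison. Leaving out 1 library gave 0 to 2, 1 to 4 and 2 to 7 members, and 0 to 1 DEGs among them in PD+LY against cAMP. Of all tested genes, 1280, 3469 and 3925 passed. In 4OHT against cAMP this became 2186 without a filter, 2307 with only 2 groups and 2373 with the replicate block, and leaving out 1 library gave 216 to 2314, 1198 to 4158 and 2351 to 4287 genes in the 3 comparisons. Same-numbered libraries correlated weakly in their deviations from the group means (r = 0.07, 0.21 and 0.06), so the numbers were not taken to pair them. The block moved no member that had passed below the threshold. It raised the genes that passed in the 3 comparisons to 2373, 4742 and 5057 of 15256, and the members to 2, 4 and 8. The choice to leave it out thus bears on these numbers.

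Of 180 member fold changes under these other settings, 170 kept their side of the threshold and 10 came to pass. Of 180 with 1 library left out, 151 kept their side, 7 came to pass, 10 no longer passed and 12 changed sign, all of values that were not called. Igf1 in 4OHT against cAMP was 0.16 without cAMP library 1 and 0.02 without 4OHT library 1 (range with 1 library left out -0.22 to 0.16), and Igfbp2 was -0.03 without cAMP library 1 and 0.00 without 4OHT library 2 (-0.03 to 0.17). For PD+LY against 4OHT, leaving out 4OHT library 1 gave Insr as -0.04, leaving out 4OHT library 2 gave Irs1 as 0.04, leaving out PD+LY library 1 gave Insr as -0.12 and Igfbp2 as 0.06, and leaving out PD+LY library 2 gave Irs1 as 0.11 and Igf2 as 0.00. The ranges were -0.12 to 0.16 for Insr, -0.68 to 0.11 for Irs1, -0.28 to 0.00 for Igf2 and -0.24 to 0.06 for Igfbp2. For PD+LY against cAMP, Igfbp2 was 0.09 without cAMP library 2 and 0.12 without PD+LY library 1 (-0.18 to 0.12). The cause was not tested. The other pathway genes, repeated after seeing the data, passed in 3 to 26, 11 to 32 and 20 to 37 cases over all settings. With 2 libraries per group, the smallest member change that passed was 1.31-fold.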

Other observations

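For each member that passed in at least 1 comparison, the genes with the most similar pattern over the 6 libraries were listed by Pearson's r of log2 CPM (prior count 2) among 13780 tested genes with a mean of at least 1 CPM. The points share their libraries and groups, so the values describe likeness and carry no p. Closest to Igfbp5 was Wee1, a kinase that restrains entry into mitosis (r = 0.996), at 86.8 and 82.0 CPM in cAMP, 67.0 and 70.4 in 4OHT and 81.3 and 76.7 in PD+LY, followed by Trpm3 (0.993) and Zfp644 (0.992). Closest to Igfbp4 was the transcription factor Cebpd (r = 0.998), which measured 6.29 and 7.46 CPM in cAMP, 9.34 and 13.2 in 4OHT and 3.36 and 3.36 in PD+LY, followed by Rpn1 and Camk2n1 (both 0.996). Igfbp3 was closest to 2610005L07Rik (0.999), Depp1 (0.998) and Papss1 (0.997). Depp1, a known FOXO target, measured 2.45 and 3.17 CPM in cAMP, 1.20 and 1.15 in 4OHT, and 0.255 and 0.243 in PD+LY.

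Irs2 was closest to Anxa4 (r = 0.996), B930095G15Rik (0.992) and Stc2 (0.990), of which Stc2 is also one of the listed regulators of IGF-binding protein cleavage, at 21.4 and 23.7 CPM in cAMP, 15.1 and 17.8 in 4OHT, and 14.6 and 11.2 in PD+LY. Igf1r was closest to Arhgap24 (0.992), Csrnp3 (0.989) and 4930503L19Rik (0.988). Igf2 was closest to D1Ertd622e (0.989) and to Sostdc1 (0.985) and Grem1 (0.982), both secreted BMP antagonists. Grem1 measured 27.4 and 28.3 CPM in cAMP, 59.3 and 59.5 in 4OHT, and 51.6 and 36.6 in PD+LY. Each coefficient was picked as one of the highest among 13780 genes.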
